A study of Schizosaccharomyces pombe with 6 samples.

Results

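The windows described here are the stretches of fission yeast (Schizosaccharomyces pombe) chromosome II that carried the least newly made histone H3 in wild-type cells, outside the silent pericentromeric and mating-type intervals. The tiled part of the chromosome (array positions 1000011 to 3049820) was divided into windows of 200 bases. Windows in the pericentromeric interval (1603161 to 1646570) and in the silent mating-type interval (2131011 to 2138920) were left out, and 9992 windows with at least 3 probes remained. The 300 windows with the lowest mean over the 3 wild-type (WT) arrays, 3% of the total, are the lowest windows. They were picked by their WT values, so their level in WT and every difference of a mutant from WT is given as a description. A linear model over all windows of the array also compared each mutant with WT, and its counts for the lowest windows are descriptions too.

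The study measured nucleosome turnover with 6 two-colour tiling arrays. All cells, the controls included, carried the plasmid pINV1-H3.2-FLAG, on which a tagged H3 is made from the inv1 promoter once glucose is replaced by sucrose. Cells in medium with 8% glucose were held in S phase with 15 mM hydroxyurea for 4 h, and sucrose was then added to 4% for 2 h in the continued presence of the drug. The tagged histone was thus made while DNA replication was blocked. Chromatin was fixed with 1% formaldehyde for 20 min and sheared to 400 to 600 bp. DNA recovered through the FLAG tag was labelled with Cy5 and whole-cell extract DNA with Cy3 on every array. The groups were WT (3 arrays), amo1D (1 array, cells without Amo1, a protein of the nuclear rim), rix1E414K (1 array, cells with a point mutation in Rix1, part of the rixosome, which acts in ribosome assembly and RNA degradation) and pob3D (1 array, cells without the FACT subunit Pob3; FACT is a histone chaperone). Each mutant was hybridised once. Nothing in the labels ties the WT samples to separate cultures, so the spread between them may be technical, and every p-value rests on that spread.

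Histone H3 is placed on DNA during replication, and outside replication old H3 is exchanged for new H3 at a rate that depends on transcription and on chaperones such as FACT. A low ratio of new H3 to input DNA marks either chromatin where old nucleosomes stay in place or DNA that holds few nucleosomes at all. Total H3 was not measured, so these cannot be told apart here. Promoters of genes read by RNA polymerase II and the short genes read by RNA polymerase III, above all the tRNA genes, are known as sites poor in nucleosomes. In fission yeast, clusters of tRNA genes stand at the borders of centromeric heterochromatin and act as barriers to its spread.

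All values are log2 ratios of Cy5 to Cy3 centred on the median of the array's 43993 probes, and a window's value is the mean of its probes. The median processed intensity was between 993.2 and 1150 in either channel, and 24 spots were left out as outliers on the 6 arrays together, none of them in a lowest window. On the amo1D array, 29 of 30 probes inside amo1 were not well above background in at least 1 channel, against 0 of 30 on each of the other arrays. Their mean log2 Cy3 signal relative to the array median was -9.61 in amo1D and -0.87 to -0.68 on the other arrays. The array holds 0 probes inside pob3, so that label could not be checked. The gene rix1 lies on chromosome III and was not examined. Every slide carried a mutant and a WT array, so that amo1D shared slide 1 with the WT replicate of that number, rix1E414K slide 2 and pob3D slide 3.

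The lowest windows ended at a mean WT ratio of -0.47. The last window inside the limit lay in kap109, a nuclear export receptor gene (1314800 to 1314999, -0.4657), and the next window outside it lay in rpc1, the gene of the large subunit of RNA polymerase III (1254600 to 1254799, also -0.4657). The limit is therefore not a gap in the values. Of the 300 windows, 266 (88.7%) stood beside another lowest window. They formed 105 runs, of which 34 were single windows, 65 had 2 to 5 windows and 6 had more than 5. The longest run had 24 windows.

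The windows count as euchromatic only in that they lie outside the silent intervals, and for 43 of the 300 (14.3%) that word needs care. These 43 lie within 10 kb of the edge of the excluded pericentromeric interval. All but 4 of them lie in the clusters of tRNA genes that border centromere 2, whose nearest coding genes are rpb1 and yox1. They are 42.6% of the 101 eligible windows there. The other 257 windows were sorted, after their values had been seen, into 32 windows within 500 bases of another tRNA gene, 143 windows between coding genes and 82 windows within genes.

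The sequences of 6 tRNA genes are given because tRNA genes are the feature most concentrated among the lowest windows, and because the left and right clusters at centromere 2 carry copies of the same genes. SPBTRNALEU.06, SPBTRNAILE.05, SPBTRNAVAL.05 and SPBTRNAGLU.06 lie in the left cluster, SPBTRNAPRO.06 lies alone on the right arm, and SPBTRNATRP.03 is a tRNA gene that holds no lowest window. Capitals mark the match to GTTCNANNC, the core of the B box, an element inside the tRNA gene through which the transcription factor TFIIIC is recruited. Sequences are from the RefSeq genome ASM294v3, 5′ to 3′ on the gene's own strand.

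SPBTRNALEU.06 (chrII:1598745-1598845, minus strand): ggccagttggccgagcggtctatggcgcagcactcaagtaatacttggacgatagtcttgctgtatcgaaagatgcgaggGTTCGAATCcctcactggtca

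SPBTRNAILE.05 (chrII:1600086-1600159, plus strand): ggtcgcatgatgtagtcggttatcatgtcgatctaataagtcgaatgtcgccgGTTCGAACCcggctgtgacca

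SPBTRNAVAL.05 (chrII:1600967-1601049, minus strand): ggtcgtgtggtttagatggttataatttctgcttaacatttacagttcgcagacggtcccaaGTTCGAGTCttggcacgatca

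SPBTRNAGLU.06 (chrII:1601491-1601562, minus strand): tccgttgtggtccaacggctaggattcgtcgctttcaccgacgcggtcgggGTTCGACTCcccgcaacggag

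SPBTRNAPRO.06 (chrII:2319292-2319363, plus strand): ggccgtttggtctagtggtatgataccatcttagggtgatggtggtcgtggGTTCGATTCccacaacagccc

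SPBTRNATRP.03 (chrII:1774860-1774932, plus strand): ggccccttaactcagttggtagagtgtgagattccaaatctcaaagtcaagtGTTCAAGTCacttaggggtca

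The pattern was found in 28 of the 31 tRNA genes of the interval, the gene without a lowest window among them. On both strands together it occurred in 11.3% of the lowest windows and in 6.57% of all eligible windows. Each of the 6 tRNA genes of the right cluster at centromere 2 has a copy of identical sequence in the left cluster. SPBTRNAILE.05 above is the same as SPBTRNAILE.08, SPBTRNAVAL.05 the same as SPBTRNAVAL.08 and SPBTRNAGLU.06 the same as SPBTRNAGLU.07. Of the 3 genes printed above with a named copy, the sequence stands for both. In all, 60.8% of the probes in the 43 windows match several places of the genome, against 0.89% of the probes in eligible windows outside the list, so the left and right clusters are not independent measurements.

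Of the 31 tRNA genes in the interval, 26 held a lowest window and 29 had one within 500 bases. All 17 tRNA genes of the centromere 2 clusters held one, and so did 9 of the 14 elsewhere. Windows overlapping a tRNA gene made up 10.3% of the lowest windows (31 of 300) and 0.39% of all eligible windows (39 of 9992), so that 79.5% of such windows were among the lowest. Within 500 bases of a tRNA gene lay 71 lowest windows, 23.7% against 1.30% of all eligible windows. The 5 tRNA genes without a lowest window were SPBTRNATHR.06, SPBTRNATRP.03, imt06, SPBTRNAPHE.03 and SPBTRNATHR.07. SPBTRNATRP.03 had ratios of -0.14, 0.01 and -0.17 in the WT replicates, and imt06, an initiator methionine tRNA gene, had -0.18, 0.47 and 0.16.

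Other lists of short RNA genes held few or no lowest windows. None of the 7 genes for 5S ribosomal RNA and none of the 17 small nuclear and nucleolar RNA genes held a lowest window, although 2 of the 5S genes had one within 500 bases. Of the 51 windows classed by overlap with a structured RNA gene other than a tRNA gene, 2 were among the lowest (0.67% of the lowest windows, against 0.51% of all eligible windows). They lay side by side between SPBC83.19C and mbf1 (1543000 to 1543399). Of the 873 coding genes measured, 61 (6.99%) held one. Among the coding lists, 1 of 24 ribosomal protein genes (rps2501), 1 of 3 histone genes (pht1, which encodes the H2A variant H2A.Z), 1 of 4 glycolytic genes (tdh1), 0 of 4 core stress genes, 0 of 3 meiotic genes and 4 of 21 membrane transporter genes held one. Of 20 long terminal repeats of retrotransposons, 6 held a lowest window, and of 2 Tf2 elements 0 did.

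Most of the remaining lowest windows lay between genes. Windows overlapping a tRNA or other structured RNA gene were classed as such, and all others by the annotation at the window centre. Between divergent coding genes, which start on either side of the gap, lay 107 (35.7%), against 10.5% of eligible windows. A further 70 (23.3%) lay between tandem genes, against 8.36%, and 7 (2.33%) between convergent genes, against 1.26%. Coding sequence held 48 (16.0%), against 59.1% of eligible windows, and untranslated parts or introns held 35 (11.7%), against 19.9%. Without the 43 windows beside centromere 2, the divergent share was 40.9% and the tandem share 19.5%. Without WT replicate 2 in the choice the coding sequence share was 5.33%, and without replicate 1 it was 28.7%, and with normexp background correction it was 37.7%, so that this share depends on the arrays and on the background correction that choose the windows.

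**Figure D1:**
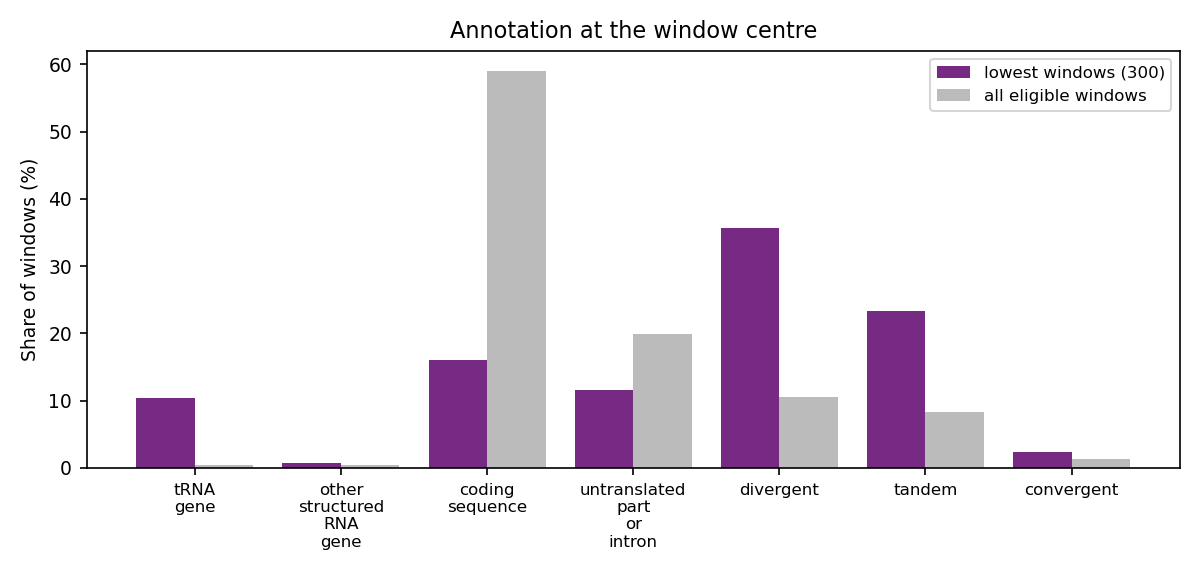
Share of windows in percent (vertical axis) by annotation class (horizontal axis), for the 300 lowest windows (purple) and all 9992 eligible windows (grey). The tRNA and other structured RNA classes hold any window that overlaps such a gene, and the other classes go by the window centre. Divergent, tandem and convergent name gaps between coding genes. The tRNA genes and the divergent and tandem gaps take a larger share of the lowest windows, and coding sequence a smaller share (16.0% against 59.1%).

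Around the starts of coding transcripts, the share of windows that were among the lowest was highest from 101 to 400 bases upstream. It was 8.35% for windows centred 101 to 200 bases before the start (33 of 395) and 8.08% at 301 to 400 bases before it (27 of 334), and fell to 1.22% at 100 to 199 bases after it (5 of 410) and 0.25% at 300 to 399 bases after it (1 of 407). Within 400 bases upstream of a start lay 33.0% of the lowest windows and 14.7% of all eligible windows. The mean of all windows in a bin was never far from 0: at 101 to 200 bases before the start it was -0.15, 0.01 and -0.04 in the WT replicates. Most promoters are thus not among these windows.

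**Figure D2:**
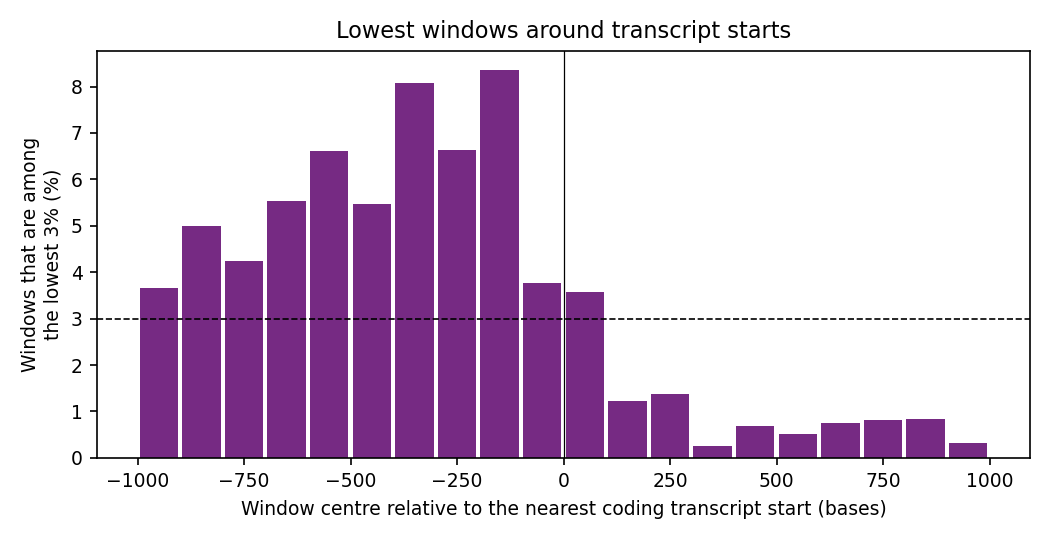
Percent of eligible windows that were among the lowest 3% (vertical axis) by the position of the window centre relative to the nearest start of a coding transcript in bases (horizontal axis, negative upstream, bins of 100 bases). The dashed line is the 3% chosen. The bins from 101 to 400 bases upstream reach 6.63% to 8.35%, and those more than 300 bases downstream stay under 1%.

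The lowest windows were poor in G and C, at 31.8% ± 5.58 (SD over 300 windows) against 36.3% ± 5.91 over all eligible windows. Between genes the difference was smaller, 30.1% ± 5.57 for the 162 intergenic windows away from centromere 2 and 31.9% ± 5.47 for the 1826 intergenic windows outside the list. A run of 8 or more A or T was found in 18.7% of the lowest and 10.1% of all eligible windows. Among intergenic windows it was in 22.2% of the lowest and 18.5% of the others, and a run of 6 or more was in 52.5% and 55.2%. The bases TATAAA, on either strand, were in 35.8% and 36.3% of these windows.

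The 250 bases before the start of 3 coding transcripts are given as examples of promoters that lay wholly in lowest windows and differed in composition and in their behaviour between arrays. The gene sui1 encodes translation initiation factor eIF1, lcf1 a long-chain fatty acid CoA ligase and tdh1 a glyceraldehyde-3-phosphate dehydrogenase of glycolysis. Capitals mark runs of 6 or more A or T, TATAAA and GTTCNANNC, the last 2 on either strand.

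sui1 (chrII:2105301-2105550, plus strand): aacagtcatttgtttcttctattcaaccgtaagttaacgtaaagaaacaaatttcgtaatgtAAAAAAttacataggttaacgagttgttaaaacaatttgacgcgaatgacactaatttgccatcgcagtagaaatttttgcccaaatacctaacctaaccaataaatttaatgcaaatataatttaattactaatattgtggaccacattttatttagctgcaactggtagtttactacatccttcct

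lcf1 (chrII:1769744-1769993, plus strand): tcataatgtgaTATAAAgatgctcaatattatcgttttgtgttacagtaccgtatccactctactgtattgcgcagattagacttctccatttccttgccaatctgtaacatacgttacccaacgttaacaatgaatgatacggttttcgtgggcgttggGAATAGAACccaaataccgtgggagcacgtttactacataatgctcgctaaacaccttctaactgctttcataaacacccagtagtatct

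tdh1 (chrII:2807345-2807594, plus strand): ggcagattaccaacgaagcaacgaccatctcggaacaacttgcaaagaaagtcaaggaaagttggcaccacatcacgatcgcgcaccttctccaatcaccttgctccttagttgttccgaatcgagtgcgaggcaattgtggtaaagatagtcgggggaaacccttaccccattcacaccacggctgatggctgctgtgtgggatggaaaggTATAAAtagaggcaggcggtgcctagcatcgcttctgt

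The sui1 stretch has 30% G and C, the lcf1 stretch 39.6% and the tdh1 stretch 51.2%. Only the sui1 stretch holds a run of 6, while the lcf1 and tdh1 stretches hold TATAAA. The lcf1 stretch holds GTTCNANNC on the other strand, although the nearest annotated tRNA gene is 4867 bases away. GTTCNANNC occurred in 4.32% of the 162 intergenic lowest windows away from centromere 2 and in 3.78% of the other intergenic windows.

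Along the chromosome the windows were uneven. From 1500011 to 1750010, which includes centromere 2, 81 of 1033 eligible windows (7.84%) were among the lowest, 38 of them away from the centromere. From 1250011 to 1500010 there were 71 of 1250 (5.68%), from 2500011 to 2750010 there were 5 of 1250 (0.4%), and from 3000011 to the end of the interval there were 0 of 248.

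Averaged over the 300 windows, the ratio was -0.79, -0.60 and -0.60 in WT replicates 1, 2 and 3. It was -0.56 in amo1D, -0.82 in rix1E414K and -0.45 in pob3D. For comparison, the mean of all eligible windows was between 0.01 and 0.06 on the 6 arrays. The low level held on arrays that took no part in the choice: 297 of the 300 windows were below 0 in amo1D, 300 in rix1E414K and 293 in pob3D. Among each mutant array's own lowest 3% were 169 of them (56.3%) in amo1D, 188 (62.7%) in rix1E414K and 123 (41.0%) in pob3D, where 3.00% of eligible windows are called. In all 3 mutants 67 of the 300 were among the array's lowest, of 69 eligible windows that were.

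Because the windows were chosen on WT, the choice tends to raise any array that took no part in it. Each WT array was therefore left out in turn. The value of a left-out array also holds that array's own spread, so it does not give the size of such a rise alone. When the lowest 3% were chosen on 2 WT arrays, the left-out array differed from them by -0.09 (replicate 1 left out), 0.19 (replicate 2) and 0.17 (replicate 3). For the same choices amo1D differed by 0.07, 0.20 and 0.15, above the left-out array in 2 of the choices and below it in 1. pob3D differed by 0.13, 0.29 and 0.29, higher than the left-out array in each of the 3 choices. rix1E414K differed by -0.19, -0.12 and -0.09, lower than the left-out array in each. With 1 array per mutant these are descriptions without a test. Log2 ratios of the pob3D array had the smallest SD of all arrays, 0.37 against 0.41 to 0.49 for WT. For rix1E414K the SD was 0.47 and for amo1D 0.45. Minus the WT mean, pob3D was 0.21 at the lowest windows and -0.25 at the highest 3% in WT, where a fall is built in. At those highest windows rix1E414K differed by -0.26 and amo1D by 0.11. The part of the narrower spread in the pob3D difference was not tested.

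**Figure D3:**
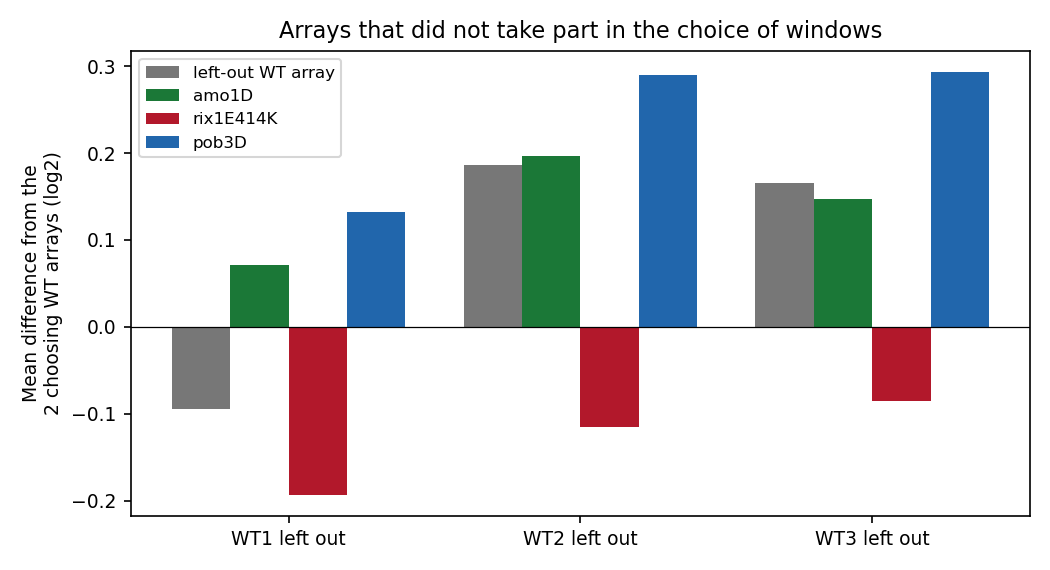
Mean difference in log2 ratio from the 2 WT arrays that chose the windows (vertical axis), for the WT array left out (grey) and each mutant array, by the WT array left out (horizontal axis). The rix1E414K bars are below 0 in all 3 choices (-0.19 to -0.09), and the pob3D bars are above the grey bar in all 3.

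The lowest windows did not behave as 1 group. The 43 windows beside centromere 2 had ratios of -1.15, -1.03 and -1.18 on the WT arrays (mean -1.12, SD 0.083, n = 3), -0.62 in amo1D, -1.62 in rix1E414K and -0.69 in pob3D. Mutants lay on both sides of the WT arrays: amo1D and pob3D were higher by 0.50 and 0.43 than the WT mean, and rix1E414K was lower. The rix1E414K value minus the WT mean was -0.50. In amo1D, 37 of the 43 windows were above all 3 WT arrays (25.8% of all windows on the array are), and in pob3D 38 of 43 were (28.6% of all). In rix1E414K, 39 of 43 were below all 3 WT arrays (24.1% of all) and 1 was above them (25.2% of all). These differences from WT contain the arrays that chose the windows, and nothing more is read from them. Against the WT array of the same slide they were 0.53 for amo1D, -0.60 for rix1E414K and 0.49 for pob3D.

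The mutant arrays took no part in the choice and can be compared with each other. They are not wholly free of it, since each shared a slide with a WT array that chose the windows. The p-values rest on the spread of those WT arrays. Log2 ratios also differed in SD between the mutant arrays (0.45 in amo1D, 0.47 in rix1E414K and 0.37 in pob3D), and the part of this was not tested. Beside centromere 2, the ratio was 2.00-fold lower in rix1E414K than in amo1D. The log2 difference was below 0 in 42 of 43 windows, against 5024 of all 9992 eligible windows. In 38 of the 43 it was at least 0.5 in size, as it was in 51 of all 300 lowest windows (17.0%) and 8.13% of all windows on the array. pob3D was higher than rix1E414K by 0.93, 1.90-fold, in 43 of 43 windows (4715 of 9992 eligible windows), and by at least 0.5 in 40 of the 43. That size was met by 90 of the 300 lowest windows (30.0%) and 7.17% of all windows, while 0 of the 300 were lower by 0.5 (1.74% of all). amo1D and pob3D lay close together there, at a difference of -0.07 ± 0.15 (pob3D minus amo1D, SD over 43 windows), with no window past 0.5 in either direction. Of all 300 lowest windows, 9 were higher in pob3D than in amo1D by at least 0.5 (3.01% of all windows) and 4 lower (3.85% of all).

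None of these differences passed the adjusted threshold. In the limma fit over all 10997 windows of the array, 0 windows passed an adjusted p of 0.05 in any comparison (0% of all windows). The smallest adjusted p was 0.198 for rix1E414K against amo1D, at a lowest window between tRNA genes of the left cluster (1600000 to 1600199) with a difference of -1.51 (SE 0.15). For pob3D against rix1E414K it was 0.240 at the same window, with a difference of 1.29. At an unadjusted p under 0.05, rix1E414K was lower than amo1D in 57 lowest windows, 38 of them beside centromere 2 (19.0% of the 300, against 6.99% of all windows), and higher in 1 (2.76% of all). pob3D was higher than rix1E414K in 81 (27.0%, against 6.88%) and lower in 0 (4.72% of all), again 38 of them beside centromere 2. pob3D was higher than amo1D in 7 (2.50% of all) and lower in 2 (3.18% of all).

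The counts of calls depend on WT replicate 3. Without it, the fit, left with fewer residual degrees of freedom, called 151 windows for rix1E414K against amo1D, 28 of them lowest windows chosen on the other 2 arrays, and 68 for pob3D against rix1E414K, 8 of them lowest windows. Each lone mutant array is assumed to vary like the WT arrays, since the residual spread comes from WT alone.

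**Figure D4:**
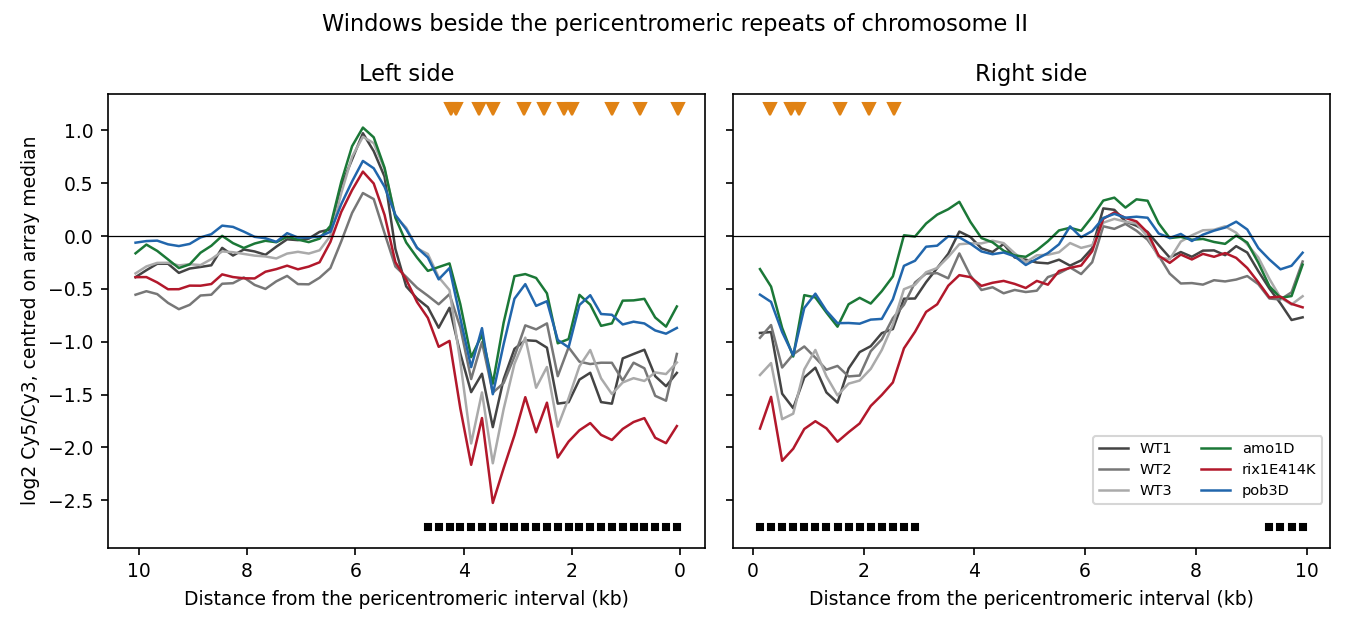
Log2 ratio of Cy5 to Cy3 (vertical axis) of windows within 10 kb of the pericentromeric interval, by distance from it in kb (horizontal axis, left side reversed), 1 line per array. Triangles mark tRNA genes and black squares the 43 lowest windows. Over the tRNA gene clusters rix1E414K (red) runs below the WT arrays (greys), and amo1D (green) and pob3D (blue) run above most of them.

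On the left, 24 consecutive windows (1598400 to 1603199) held 11 tRNA genes and reached to the edge of the excluded interval. On the right, 15 consecutive windows (1646600 to 1649599) held 6 tRNA genes. The other 4 windows lay farther out, beside the membrane transporter gene SPBC21B10.09 (1655800 to 1656599), and had -0.67, -0.49 and -0.55 in WT, -0.47 in amo1D, -0.62 in rix1E414K and -0.24 in pob3D. Of all 300, the lowest window held SPBTRNALEU.06 (1599600 to 1599799), at -1.81, -1.48 and -2.15 in WT, -1.40 in amo1D, -2.52 in rix1E414K and -1.50 in pob3D. All 10 windows with the lowest WT means lay in these 2 clusters. A window that overlaps SPBTRNAILE.05 (1600800 to 1600999) had -1.59, -1.33 and -1.80 in WT, -1.01 in amo1D, -2.10 in rix1E414K and -0.98 in pob3D. On the right, the window with the identical copy SPBTRNAILE.08 and part of SPBTRNAALA.11 (1647200 to 1647399) had -1.63, -1.12 and -1.68 in WT, -1.14 in amo1D, -2.01 in rix1E414K and -1.13 in pob3D. These windows do not cover the same stretch of the 2 copies.

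Between mutants, the difference of rix1E414K from amo1D ran from -1.16 to -0.73 over the 17 tRNA genes of the clusters, and that of pob3D from rix1E414K from 0.69 to 1.18. These genes include the 6 on the right that are copies of genes on the left. The eligible windows of the left flank that were not among the lowest averaged -0.03, -0.35 and 0.00 in WT, 0.08 in amo1D, -0.23 in rix1E414K and 0.10 in pob3D. Within the excluded interval itself, 210 windows averaged -1.31, -1.73 and -1.33 in WT, -0.91 in amo1D, -1.62 in rix1E414K and -1.09 in pob3D.

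Values of the input channel moved with this result. In the 43 windows the log2 Cy3 signal relative to the array median was 0.06, -0.02 and 0.04 on the WT arrays, 0.02 in amo1D, 0.64 in rix1E414K and -0.20 in pob3D. In the same windows the Cy5 signal was -1.10, -1.03 and -1.14 in WT, -0.60 in amo1D, -0.98 in rix1E414K and -0.86 in pob3D. A lower ratio in rix1E414K thus came with a higher Cy3 signal and a Cy5 signal above the WT arrays, while amo1D had a higher Cy5 signal and a Cy3 signal within the WT range. The part of the input channel in the result was not tested. With only probes that match 1 place, 16 lowest windows remained near centromere 2, with a mean difference of rix1E414K from amo1D of -0.74, below 0 in 15 of 16.

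Away from centromere 2, the 32 windows near other tRNA genes were at -0.83, -0.51 and -0.55 in WT, -0.61 in amo1D, -0.76 in rix1E414K and -0.40 in pob3D. SPBTRNAARG.05, with 2 lowest windows, had -0.92, -0.58 and -0.64 in WT, -0.55 in amo1D, -0.74 in rix1E414K and -0.35 in pob3D. SPBTRNAPRO.06 had -1.03, -0.52 and -0.58 in WT, -0.91 in amo1D, -0.94 in rix1E414K and -0.46 in pob3D. At all 14 tRNA genes away from centromere 2, members or not, rix1E414K was below amo1D (differences of -0.69 to -0.04) and pob3D above rix1E414K (0.05 to 0.83). Of all 9992 eligible windows, 5024 were lower in rix1E414K than in amo1D and 4715 higher in pob3D than in rix1E414K. At the 17 genes of the clusters the differences of rix1E414K from amo1D ran from -1.16 to -0.73, close to the -0.69 at the lower end of the 14 genes. Over all windows of the array, 8.13% were lower in rix1E414K than in amo1D by at least 0.5. The differences of pob3D from rix1E414K overlapped between the 2 sets (0.69 to 1.18 at the clusters). Of the 17 genes, the 6 on the right are copies of genes on the left. The difference between the 2 sets of genes was not tested.

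The 143 windows between coding genes were at -0.80, -0.52 and -0.52 in WT, -0.53 in amo1D, -0.72 in rix1E414K and -0.40 in pob3D. Over them pob3D was higher than rix1E414K by 0.32 ± 0.27 (SD over 143 windows), in 125 of 143. The difference of rix1E414K from amo1D was -0.19 ± 0.36, below 0 in 113 of 143. Over all eligible windows these counts were 4715 and 5024 of 9992. All eligible divergent windows, lowest or not, gave 0.13 (above 0 in 698 of 1049) and -0.22 (below 0 in 783). All eligible tandem windows gave 0.19 (above 0 in 584 of 835) and -0.26 (below 0 in 601). Both channels were dim at the 143 lowest windows: in WT the log2 Cy3 signal was -1.25 ± 0.16 (SD, n = 3) and Cy5 was -1.86 ± 0.31. The input channel differed between the mutants there, at -1.48 in amo1D, -0.73 in rix1E414K and -1.50 in pob3D, and Cy5 was at -2.01, -1.46 and -1.86. Its part in the differences was not tested. The 82 windows within genes were the most alike on all arrays, at -0.57, -0.56 and -0.44 in WT, -0.57 in amo1D, -0.60 in rix1E414K and -0.44 in pob3D.

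**Figure D5:**
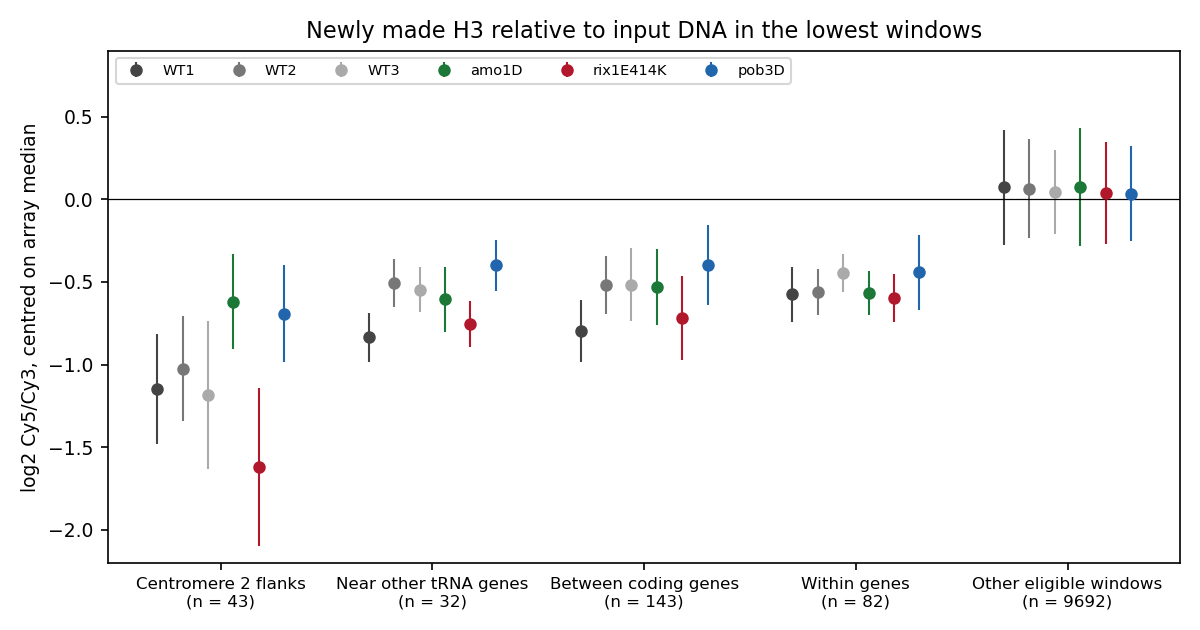
Log2 ratio of Cy5 to Cy3 centred on the array median (vertical axis) for the 4 kinds of lowest windows and for the other eligible windows (horizontal axis). Points are the mean over windows on each of the 6 arrays and bars the SD over windows. Among the 4 kinds of lowest windows the mutants are farthest apart beside centromere 2 (-1.62 to -0.62) and closest within genes (-0.60 to -0.44), and in the other eligible windows they lie between 0.03 and 0.08.

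Outside the 43 windows, rix1E414K was lower than amo1D by at least 0.5 in 13 of 257 windows (5.06%), under the 8.13% of all windows, and pob3D was higher than rix1E414K by at least 0.5 in 50 (19.5%), above the 7.17% of all. Over the 257 windows the mean difference was -0.13 for rix1E414K minus amo1D and 0.27 for pob3D minus rix1E414K. With each mutant set against the WT array of its own slide these were -0.33 and 0.24, and pob3D minus amo1D turned from 0.14 to -0.09. The windows of the highest 3% in WT, chosen in the same way, gave 0.02 for pob3D minus rix1E414K and -0.37 for rix1E414K minus amo1D.

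The promoter of tdh1 differed widely between arrays. Its 3 windows (2808800 to 2809399) averaged -0.82, -0.10 and -1.37 on the WT arrays, 0.29 in amo1D, -1.71 in rix1E414K and -0.83 in pob3D. Only pob3D lay within the range of the WT arrays. At the window next to the start (2809200 to 2809399) the difference of rix1E414K from amo1D was -2.27 (SE 0.51), the largest in size among the lowest windows, with an adjusted p of 0.293 in limma. Of the 5 windows with the largest such difference, 3 were these and 2 lay in the tRNA clusters.

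The gap between nif1 and sui1 went the other way. Its window at 2107000 to 2107199, which overlaps the long noncoding RNA gene SPNCRNA.387, had -1.35, -0.91 and -0.46 in WT, -1.27 in amo1D, -0.80 in rix1E414K and -1.02 in pob3D. It had the largest positive difference of rix1E414K from amo1D among the lowest windows, at 0.47 (SE 0.39, adjusted p 0.709 in limma). Of the 5 windows with the largest positive difference, 3 lay in this gap, 1 lay in front of hse1 and 1 in front of pmt3, which encodes the fission yeast SUMO protein. At that window all 3 mutants lay within the range of the WT arrays. At the next window (2107200 to 2107399) WT had -0.85, -0.54 and -0.45, and amo1D and pob3D (-0.86) were below all 3.

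The windows where pob3D differed most from the other mutants lay at the edge of the mating-type interval and beside a tRNA gene. The window at 2139200 to 2139399, between mat3-Mc and emc3, had -1.15, -0.72 and -0.39 in WT, -0.70 in amo1D, -0.83 in rix1E414K and -0.04 in pob3D. Its neighbours at 2139000 and 2139400 had -0.15 and -0.09 in pob3D. On the other side of the interval the window at 2130800 to 2130999 had -0.76, -0.67 and -0.44 in WT, -0.05 in amo1D, -0.38 in rix1E414K and 0.11 in pob3D. In the convergent gap between ubp9 and SPBC1703.13C, beside SPBTRNAPRO.07, the window at 2940800 to 2940999 had -0.95, -0.57 and -0.50 in WT, -0.72 in amo1D, -0.71 in rix1E414K and -0.04 in pob3D. None of these passed the test of pob3D against another mutant. The adjusted p of pob3D against rix1E414K in limma was 0.445 at 2139200 and 0.427 at 2940800.

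In the opposite direction, pob3D was lowest relative to the other mutants in an untranslated part or intron of SPBC17G9.12C (2196400 to 2196599), at -0.95 against -0.77 in amo1D and -0.58 in rix1E414K, where WT had -0.73, -0.61 and -0.60. The gap between ldb1 and sol1 (1308200 to 1308399) had -0.73, -0.26 and -0.91 in WT, -0.40 in amo1D, -1.33 in rix1E414K and -1.09 in pob3D. A further such window was in the gap between clg1 and scr1 (1752400 to 1752599), at -0.62 in pob3D.

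Windows that were low in every mutant included the gap between SPBP23A10.11C and frg1 (2023600 to 2023799), at -1.14, -0.79 and -0.96 in WT, -1.03 in amo1D, -1.11 in rix1E414K and -0.77 in pob3D. An untranslated part or intron of pof4 (2054400 to 2054599) was at -1.17, -0.69 and -0.56 in WT, -0.97 in amo1D, -0.91 in rix1E414K and -0.76 in pob3D. Both had the lowest or next to lowest mutant mean of their annotation class.

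Few genes held several lowest windows. The gene with the most was tra1, which encodes the large pseudokinase subunit of the SAGA complex, a coactivator that acetylates histones: 14 of its 55 windows were among the lowest, 8 of them in the longest run within a gene (1899800 to 1901399). Those 14 averaged -0.46, -0.59 and -0.46 in WT, -0.65 in amo1D, -0.64 in rix1E414K and -0.73 in pob3D. All 14 were below all 3 WT arrays in pob3D, whereas 24 of all 300 lowest windows were (32.3% of all windows on the array). In amo1D 8 of the 14 were below all 3 WT arrays (24.1% of all windows), and in rix1E414K 9 were (24.1% of all). Over all 55 windows of tra1 the means were -0.32, -0.41 and -0.35 in WT, -0.45 in amo1D, -0.48 in rix1E414K and -0.55 in pob3D, so that every mutant was below the WT arrays.

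The other genes with at least 3 lowest windows were kap109 (6 of 15), apm3, a subunit of the AP-3 adaptor of vesicle transport (5 of 8), sec31, of the COPII coat (4 of 23), ctu2, of tRNA thiolation (3 of 6), rpc1 (3 of 23) and skp1, of the SCF ubiquitin ligase (3 of 6). In pob3D kap109 (-0.42) and apm3 (-0.34) lay within the WT values, which were -0.43, -0.61 and -0.38 at kap109 and -0.59, -0.69 and -0.27 at apm3. At ctu2 WT had -0.55, -0.59 and -0.47 and pob3D -0.45, and at rpc1 WT had -0.46, -0.68 and -0.41 and pob3D -0.25. At sec31 the 4 windows averaged -0.41, -0.74 and -0.48 in WT, -0.64 in amo1D, -0.62 in rix1E414K and -0.32 in pob3D. At skp1 the 3 windows averaged -0.76, -0.48 and -0.38 in WT and -0.22 in pob3D. The run of 7 windows from skp1 into the gap before uch2 (1141600 to 1142999) had -0.88, -0.62 and -0.51 in WT, -0.66 in amo1D, -0.87 in rix1E414K and -0.25 in pob3D.

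At the gap between mrpl35 and atf21 (1722600 to 1723799, 6 windows) the ratios were -0.70, -0.65 and -0.49 in WT, -0.57 in amo1D, -0.70 in rix1E414K and -0.28 in pob3D. In the run from apl3 into the gap beside it (1428200 to 1429599, 7 windows) they were -0.76, -0.56 and -0.46 in WT, -0.58 in amo1D, -0.73 in rix1E414K and -0.51 in pob3D. In both runs rix1E414K lay at the lower end of the WT values.

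Around the lowest window of the 52 runs between coding genes, the mean ratio returned towards 0 within about a kilobase. In WT replicate 1 it was -0.84 at the centre, -0.66 and -0.64 at 200 bases on either side, -0.40 and -0.35 at 400 bases, and -0.02 and 0.01 at 1000 bases. At the centre it was -0.50 in WT replicate 2, -0.56 in WT replicate 3, -0.56 in amo1D, -0.70 in rix1E414K and -0.44 in pob3D, so that WT replicate 1 was the lowest array and pob3D the highest. At the 10 runs near other tRNA genes the centre was at -0.83, -0.56 and -0.55 in WT, -0.77 in rix1E414K, -0.56 in amo1D and -0.41 in pob3D.

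The ranking of the lowest windows was not the same on every array. Away from centromere 2, Pearson's r between arrays over the 257 windows was -0.03 for WT replicates 1 and 2, 0.23 for 1 and 3 and -0.21 for 2 and 3, against 0.84, 0.81 and 0.78 over all eligible windows. Between WT and mutant arrays it ran from -0.06 (WT replicate 3 and amo1D) to 0.67 (WT replicate 3 and rix1E414K) over the 9 pairs. Neighbouring windows share fragments of up to 600 bp, and the choice by the WT mean narrows the range of the values, so these correlations describe the list only.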

How the data were processed

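Per the file headers, scanning software (Agilent Feature Extraction, version 12.0.3.1) removed a spatial background and scaled the dyes linearly. What the authors deposited is the processed intensity of both channels per spot, and the authors' deposited series table holds their linear ratio, used only to check them. From the deposited intensities, log2 Cy5 over Cy3 was centred on each array's median probe, without loess. Outlier spots were left out. A shift common to all probes cannot be seen.

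Windows of 200 bases with at least 3 probes of 60 bases entered a linear model (limma 3.58.1, R 4.3.3) with a coefficient for each genotype and Benjamini-Hochberg adjustment over 10997 windows. On simulated data for rix1E414K against amo1D, 84% of 200 windows changed by -1 on the log2 scale were recovered, and 100% at -2. The simulated noise of every array, the mutants included, was drawn independently for each window from the spread of the fit, which comes from WT. The simulation checks the code, and cannot give the power of 1 mutant array that may vary more than WT.

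The files name no build. Array numbering ran 900 bases ahead of ASM294v3 before the pericentromere and 1800 after it, within 2 bases in 20 of 20 windows of 100 kb, by probe signal against GC content. Window positions are the array's. The files hold no mean signals, so median signals served for normexp and for values without background subtraction. The windows and lists were chosen with earlier results of these data known. The windows named are the 10 lowest, the 6 longest runs, genes with at least 3 windows, extremes by class and by mutant, the edges of the limit and of the excluded intervals. SPBTRNAARG.05, SPBTRNAPRO.06, lcf1 and the 6 sequences of tRNA genes were chosen after their values were seen.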

Additional observations from a re-analysis of the deposited data

How the results depend on the processing

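No paired analysis was possible because the labels number no mutant and a slide term leaves no residual degrees of freedom, so that within-slide differences are given without a test. Of the values recomputed for the main comparisons, 298 stayed within a set limit, 47 moved further, and the cause was not tested. For means and their differences the limit was the SD between WT arrays. For shares it was a Wilson binomial interval over windows, and for GC the same interval over bases. Counts of calls had to stay the same. Normexp background correction, which kept 202 of the 300 windows, gave 41.7% of windows in the own lowest 3% of amo1D, 56.7% in that of rix1E414K and 33.3% in that of pob3D, with 37.7% in coding sequence, 24.3% in divergent gaps, 16.7% in tandem gaps and 34.3% GC. Without background subtraction the coding share was 21.7% and GC 32.6%. Scaling to the median absolute deviation put WT replicate 3 at -0.75. Probes with 1 match gave rix1E414K -0.69, with 5.41% of windows overlapping a tRNA gene and 14.5% within 500 bases. Choosing the lowest 2% gave rix1E414K -0.94, tRNA shares of 14.5% and 31.5%, coding 7.50% and tandem 28.5%. Choosing the lowest 5% gave -0.68, 6.40% and 15.6%, coding 22.6%, untranslated part or intron 16.4% and GC 32.3%. Within slides, with no test possible, amo1D minus WT was 0.23, rix1E414K minus amo1D -0.45 and pob3D minus amo1D -0.086, which turned its sign from 0.11. Without the 43 windows beside centromere 2, an alternative chosen after seeing the data, rix1E414K was at -0.68, rix1E414K minus amo1D at -0.13, the pob3D own-lowest share at 35.0% and the tRNA shares at 4.67% and 12.5%. Leaving out each WT replicate gave ranges of 48.0% to 54.7% for the amo1D own-lowest share, 35.0% to 47.0% for pob3D, 5.33% to 28.7% for coding sequence, 27.3% to 41.7% for divergent gaps and 31.1% to 33.5% for GC. It gave 0 to 151 windows called for rix1E414K against amo1D, 0 to 68 for pob3D against rix1E414K, 0 to 7 for pob3D against amo1D, 0 to 55 for rix1E414K against WT and 0 to 124 for pob3D against WT, all of the calls without WT replicate 3. Beside centromere 2, rix1E414K minus amo1D stayed between -1.21 and -0.74 over 12 alternatives, and pob3D minus rix1E414K between 0.70 and 1.15. Both channels lay below the array median in WT near other tRNA genes, between coding genes and within genes, and the effect of dim signal was not tested.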
